A study of Rattus norvegicus with 6 samples.

Results

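Runx2, Alpl, Spp1 and Bglap, genes used to follow stromal cells on their way to bone-forming osteoblasts, were described in cultured rat bone marrow mesenchymal stromal cells. The members were 5 Ensembl identifiers given with their symbols, and 4 of the 5 had a row among the 30452 genes of the count table: ENSRNOG00000020193 (Runx2), ENSRNOG00000013954 (Alpl), ENSRNOG00000043451 (Spp1) and ENSRNOG00000019607 (Bglap). The identifier given for Bmp2 was not analysed here. Transcripts had been measured by RNA sequencing in 6 libraries of wild-type (WT) cells from osteogenic differentiation cultures. In 3 libraries the cells were left untreated (Blank, called control), and in 3 they were co-cultured with AAT-ZCG hydrogel, an enzyme-linked material for bone defects in diabetes. The labels do not spell out its abbreviation. The labels do not state the days in culture, the medium or whether the libraries came from separate animals or cultures, so the p-values reflect the variation among these 6 libraries, which may be technical.

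In osteoblast differentiation, BMP ligands act through receptor kinases and SMAD proteins and raise Runx2, the transcription factor without which osteoblasts do not form. Runx2 binds short DNA elements in genes of the bone cell programme. Alpl encodes tissue-nonspecific alkaline phosphatase, a cell-surface enzyme that removes the mineral inhibitor pyrophosphate and is known as an early marker. Spp1 encodes osteopontin, a secreted acidic phosphoprotein that binds mineral and integrins and is also made by cells outside bone. Bglap encodes osteocalcin, a small mineral-binding protein known as a late marker of mature osteoblasts.

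The 3 genes that could be tested by the planned comparison were called as changed with hydrogel, and not all in the same direction. Spp1 rose 1.99-fold, Alpl fell to 0.53 of its control level and Runx2 rose 1.17-fold. The call of Runx2 was lost in 7 of 20 alternative analyses. Bglap was at the edge of detection, with 16 counts in the 3 control libraries together and 73 in the 3 hydrogel libraries. Of the 3 genes that passed the filter on low counts, all 3 were called by the quasi-likelihood test of edgeR, with a Benjamini-Hochberg adjusted p under 0.05 over all 14715 genes tested. The background is that 34.5% of all tested genes were called, 17.5% as higher and 17.1% as lower with hydrogel. With the fold limits of the series' design text added (above 2 or below 0.5), 0 of the 3 were called, against a background of 5.73%. DESeq2 also called 0 of the 3, against 5.74%. At an unadjusted p under 0.05 without fold limits, edgeR passed 3 of the 3, as it did 43.7% of all tested genes. The median log2 fold change of the 3 was 0.23, which is the value of Runx2 itself, beside 0.0021 over all tested genes. It describes no shared direction. In bulk RNA, fewer cells of a type and less RNA per cell cannot be told apart.

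Library totals ranged from 30601703 to 93728651 counts, with the library numbered 2 the deepest of each group. Each library had a count in 17538 to 19261 genes. Levels are given as FPKM, counts per kilobase of gene length and scaled to the library's total, which allows levels of different genes to be compared. The gene length implied by count, FPKM and library total was computed for each member in each library as a check of identity. It was 5808 bp for Runx2, 2428 bp for Alpl, 1529 bp for Spp1 and 487 bp for Bglap, and for none of the 4 did it differ between libraries by more than a relative 1.17e-10. The median implied length of the 21162 genes with a count was 2335 bp. Bglap is known for a short transcript and Runx2 for a long one, and 10.8% of genes were shorter than Bglap and 90.8% shorter than Runx2. The check shows that the count and FPKM of each identifier come from the same reads and 1 length, and the symbols rest on the list of members alone.

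The order of levels per length was the same in all 6 libraries, with Spp1 highest, then Alpl, Runx2 and Bglap. No neighbours in that order overlapped within a group. The closest were Alpl and Runx2 with hydrogel, where the lowest Alpl value was 9.14 FPKM and the highest Runx2 value 7.24 FPKM.

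**Figure D1:**
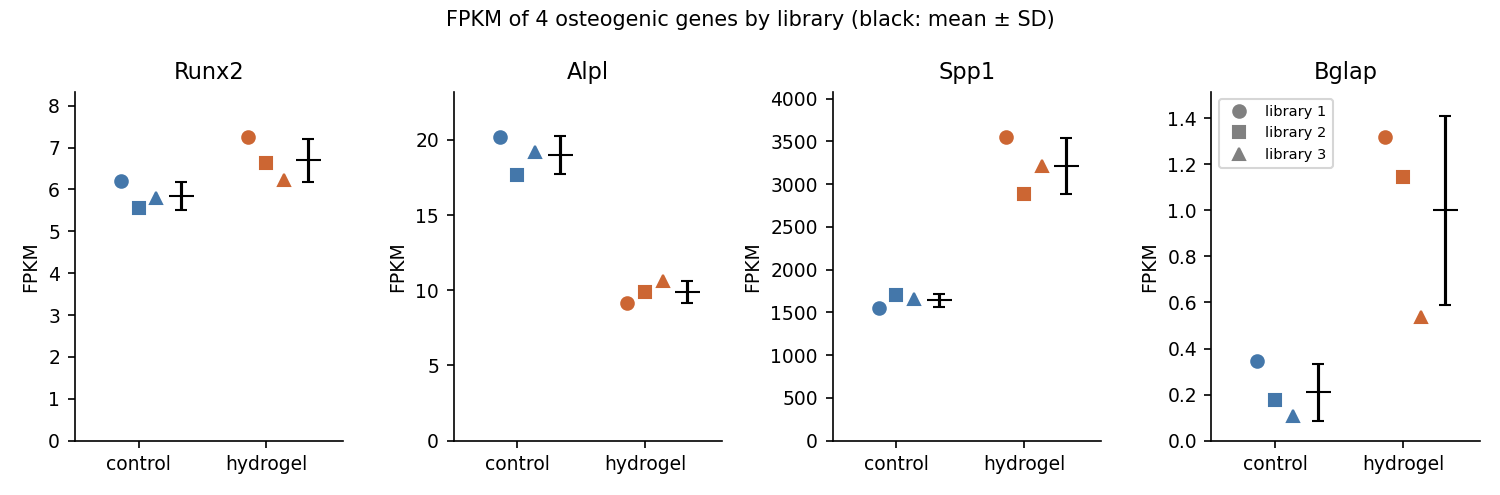
FPKM (y axis, from 0) of Runx2, Alpl, Spp1 and Bglap in the 3 control and 3 hydrogel libraries, with marker shape for the library number and the black bar for mean ± SD. The hydrogel libraries lie above all controls for Runx2, Spp1 and Bglap and below all controls for Alpl.

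Runx2, the regulator, changed least. It measured 6.20, 5.55 and 5.78 FPKM in control libraries 1, 2 and 3, and 7.24, 6.64 and 6.22 FPKM in hydrogel libraries 1, 2 and 3. The groups did not overlap, but only narrowly, since hydrogel library 3 lay just above control library 1. The same lack of overlap was found for 47.3% of all tested genes. The group means were 5.84 ± 0.33 and 6.70 ± 0.51 FPKM (SD, n = 3 each). The log2 fold change was 0.23 (SE 0.068, 95% interval 0.081 to 0.37, edgeR adjusted p = 0.017), a rise of 16.9%. Of all tested genes, 52.8% had a smaller absolute log2 fold change. The call was lost when 1 library was left out in 3 cases, with edgeR adjusted p = 0.102 without control library 2, 0.0569 without control library 3 and 0.073 without hydrogel library 1. With libraries 1 and 3 of each group alone the log2 fold change was 0.19 (edgeR adjusted p = 0.172).

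Alpl, the enzyme, was lower in every hydrogel library. It measured 20.2, 17.7 and 19.2 FPKM in control libraries 1, 2 and 3, and 9.14, 9.86 and 10.6 FPKM in hydrogel libraries 1, 2 and 3. The gap between the groups was wide beside the spread within them, with coefficients of variation of 6.54% in controls and 7.58% with hydrogel. The group means were 19.0 ± 1.24 and 9.88 ± 0.75 FPKM (SD, n = 3 each). The log2 fold change was -0.91 (SE 0.072, 95% interval -1.07 to -0.76, edgeR adjusted p = 9.53e-08). As a fold this was 0.53 with an interval of 0.478 to 0.589, which holds the limit of 0.5 used in the series' design text. Of the 14715 tested genes, 451 had a larger fall. The count behind each value was 692 to 4025, so counting error alone gave a coefficient of variation of 2.14% in controls and 3.28% with hydrogel.

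Spp1, the matrix phosphoprotein, was among the most abundant transcripts of these cells and moved up that order with hydrogel. It measured 1553, 1708 and 1661 FPKM in control libraries 1, 2 and 3, and 3545, 2882 and 3208 FPKM in hydrogel libraries 1, 2 and 3. By FPKM it ranked 26 or 27 among all genes of each control library, and 8, 14 and 10 in hydrogel libraries 1, 2 and 3. Its share of a library was 0.251% ± 0.012 in controls and 0.491% ± 0.051 with hydrogel (SD, n = 3 each). The log2 fold change was 0.99 (SE 0.059, 95% interval 0.87 to 1.12, edgeR adjusted p = 3.98e-09). This corresponds to a fold of 1.99 with an interval of 1.83 to 2.17, which holds the limit of 2, so Spp1 fell just short of a 2-fold call. Of all tested genes, 687 had a larger rise. The spread between libraries was far above counting error, since the coefficient of variation was 4.85% in controls and 10.3% with hydrogel, against 0.295% and 0.226% from counting.

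**Figure D2:**
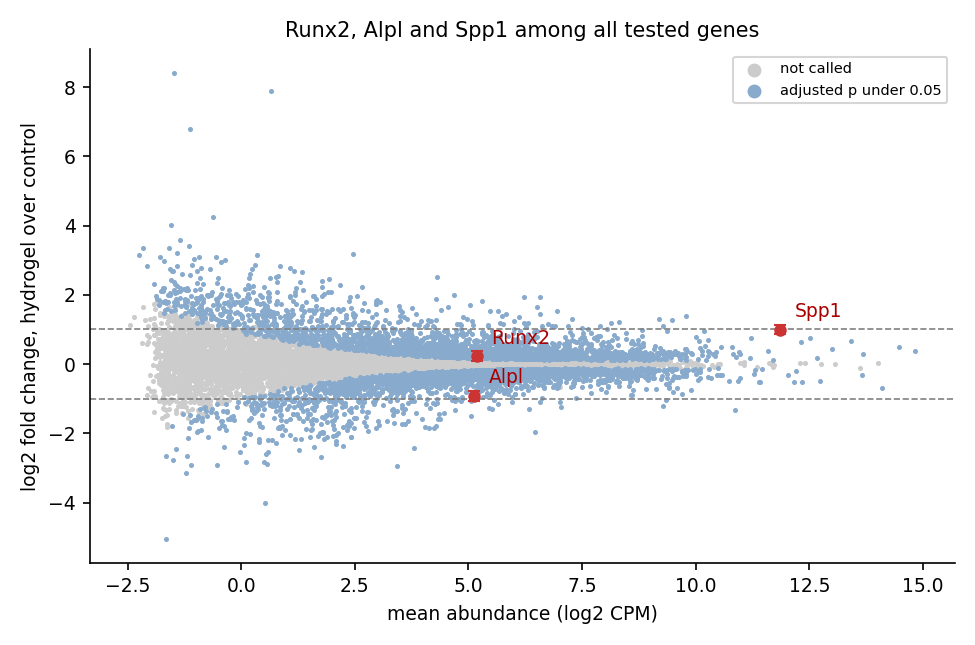
Log2 fold change of hydrogel over control (y axis) against mean abundance in log2 CPM (x axis) for the 14715 tested genes, gray where not called and blue where the adjusted p was under 0.05. Red points with 95% intervals mark Runx2, Alpl and Spp1, and the dashed lines mark 2-fold, which Spp1 at 0.99 and Alpl at -0.91 do not reach.

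Bglap, the late marker, had a count in every library but few of them. Control libraries 1, 2 and 3 held 6, 8 and 2 counts, and hydrogel libraries 1, 2 and 3 held 20, 45 and 8. As CPM, scaled to the library's total, these were 0.169, 0.0854 and 0.0516 CPM in controls and 0.641, 0.558 and 0.261 CPM with hydrogel. The groups did not overlap in CPM, though the exact 95% Poisson interval of hydrogel library 3 (0.113 to 0.515 CPM) overlapped those of all 3 controls. The 47.3% of genes without overlap is a share of the tested genes, which do not include Bglap. No such share was computed for genes with so few counts. Such intervals cover counting error only. In FPKM the group means were 0.209 ± 0.124 and 0.9995 ± 0.41 (SD, n = 3 each). The smallest ratio of Spp1 to Bglap FPKM in a hydrogel library was 2517.

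Bglap did not pass the filter on low counts and was therefore not tested in the main comparison. The filter asked for 0.269 CPM in 3 libraries, 2 libraries passed it, and hydrogel library 3 missed it at 0.261 CPM. With no filter, the log2 fold change was 2.30 (SE 0.78, 95% interval 0.78 to 3.82, edgeR adjusted p = 0.0149 over 21162 genes, of which 12.4% were called higher). With a filter at a minimum count of 5, chosen after seeing the data, it was 2.32 (SE 0.67, edgeR adjusted p = 0.0132 over 15739 genes, of which 15.9% were called higher). With no filter, DESeq2 gave 2.32 (SE 0.78, DESeq2 adjusted p = 0.0115), and it called 11.7% of the 21162 genes as higher. In that share, any gene without a DESeq2 adjusted p counts as not called. Under the looser filter Bglap passed through the 3 hydrogel libraries, where it was higher, while 1 of the 3 controls reached the level asked for. The call under that filter is therefore no separate support. The call with no filter was lost when any of 4 single libraries was left out, with edgeR adjusted p = 0.0638 without control library 2, 0.0639 without control library 3, 0.0637 without hydrogel library 1 and 0.125 without hydrogel library 2. With the default filter, which asks for only 2 libraries once 1 is left out, Bglap was tested in 5 of these 6 fits and called in 4. There the edgeR adjusted p was 0.0127 without control library 1, 0.056 without control library 2, 0.0416 without control library 3, 0.0268 without hydrogel library 1 and 0.00796 without hydrogel library 3. In these fits Bglap passed the filter through hydrogel libraries alone, since its highest control value was 0.169 CPM. These 4 calls are therefore no separate support either. The exact two-sided permutation test over libraries gave p = 0.1, the smallest that 3 against 3 libraries allow. The summed counts gave a rate 5.38 times as high with hydrogel, with an exact 95% interval of 3.10 to 9.91 for counting error only.

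**Figure D3:**
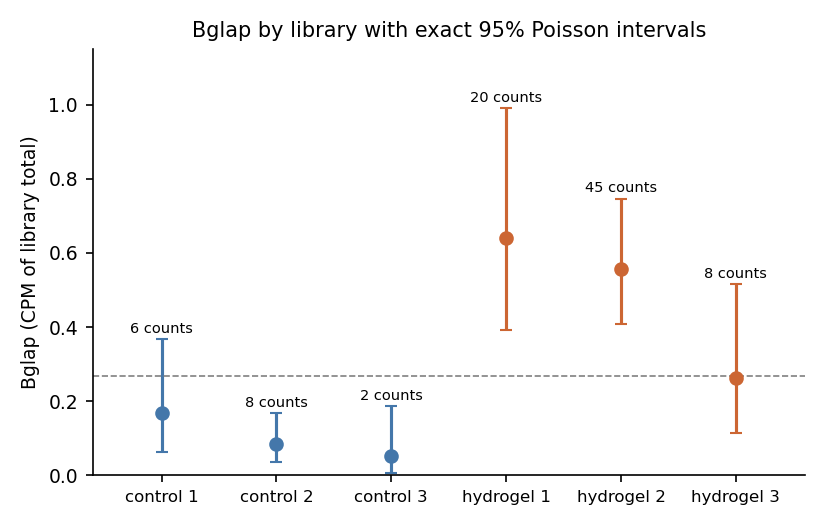
Bglap in CPM of the library total (y axis, from 0) in each of the 6 libraries, with exact 95% Poisson intervals and the number of counts above each. The dashed line at 0.269 CPM is the level the low-count filter asked for in 3 libraries, and hydrogel libraries 1 and 2 lie above it.

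Ratios between the genes were also compared within each library, a scale that no scaling between libraries can move. Of the 6 pairs of members, 5 had FPKM ratios that did not overlap between the groups. The same held for 42.0% of all pairs of the 15658 genes with a count in every library. The 6 pairs share genes and are not independent. Pairs with Alpl had to lie apart, because Alpl was below all controls in every hydrogel library and the other genes were above them. Their exact permutation p was thereby fixed at 0.1, the smallest that 3 against 3 libraries allow, and is no separate support. Runx2 measured 0.308, 0.314 and 0.302 times the Alpl level in control libraries 1, 2 and 3, and 0.793, 0.673 and 0.585 times that level in hydrogel libraries 1, 2 and 3. This regulator-to-enzyme ratio was the tightest of the 6 among controls, with an SD of 0.028 on the log2 scale, and it was higher in every hydrogel library. The mean log2 difference was 1.14 (exact two-sided permutation p = 0.1, adjusted 0.12 over 6 pairs). Counting error alone gave coefficients of variation of 2.50% for Runx2 and 2.14% for Alpl in controls. So small an SD over 3 libraries is therefore not read as a trait of the pair.

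The largest difference between well-detected genes was that of Alpl against Spp1. The log2 ratio of Alpl to Spp1 was -6.43 ± 0.16 in controls and -8.34 ± 0.22 with hydrogel (SD, n = 3 each), a difference of -1.91 (exact two-sided permutation p = 0.1, adjusted 0.12). For Runx2 against Spp1 the difference was -0.77 (exact permutation p = 0.1, adjusted 0.12). The ratios to Bglap carried its counting error. They differed by -2.13 for Runx2 and -3.27 for Alpl (exact permutation p = 0.1, adjusted 0.12 for each). Spp1 against Bglap differed by -1.36 with overlapping groups (exact permutation p = 0.2, adjusted 0.2). With 3 against 3 libraries no pair could reach p under 0.05.

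**Figure D4:**
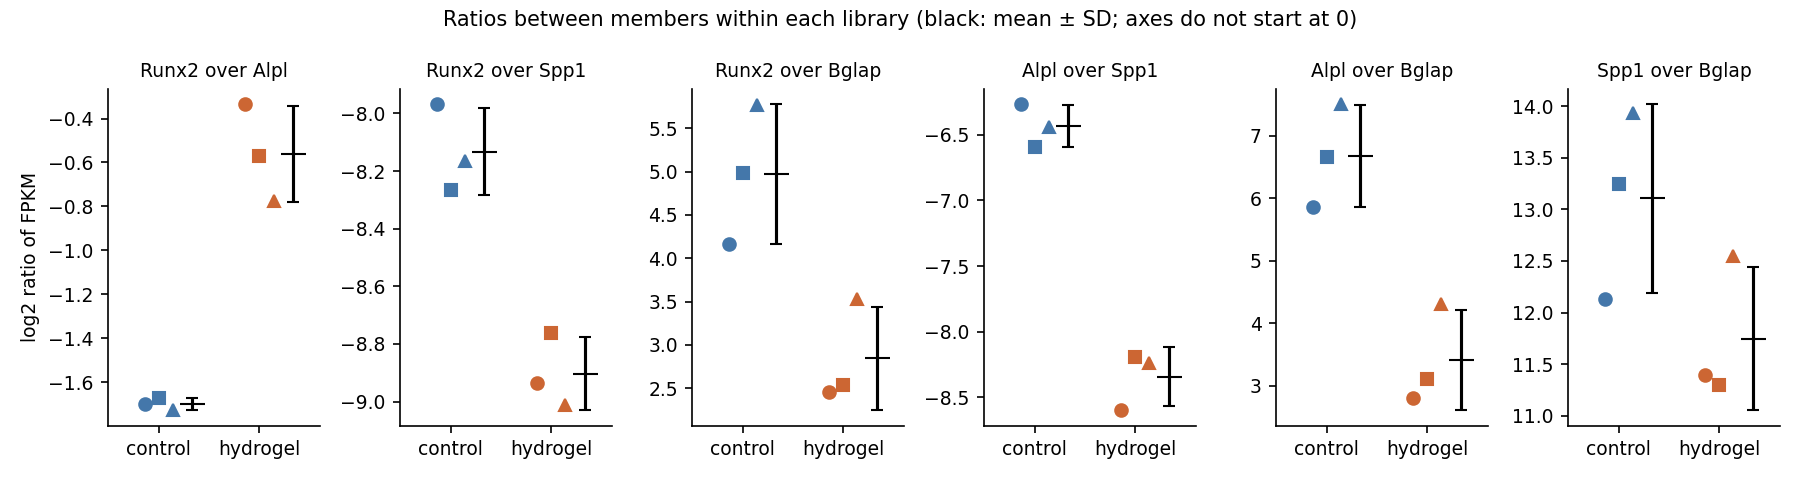
Log2 ratio of FPKM within each library (y axis) for the 6 pairs of members, by group, with marker shape for the library number (circle 1, square 2, triangle 3) and the black bar for mean ± SD. The groups are apart in 5 pairs, most tightly for Runx2 over Alpl among controls, and overlap for Spp1 over Bglap.

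The hydrogel libraries differed among themselves. Library 1 had the highest Runx2, Spp1 and Bglap and the lowest Alpl of the 3, and so lay farthest from the controls in all 4 genes. For Bglap its exact 95% Poisson interval (0.392 to 0.990 CPM) overlapped those of libraries 2 (0.407 to 0.746 CPM) and 3 (0.113 to 0.515 CPM). Library 3 had the lowest Runx2 and Bglap and the highest Alpl, while library 2 had the lowest Spp1. Without hydrogel library 1 the log2 fold change was 0.92 for Spp1, -0.87 for Alpl and 0.17 for Runx2. Single libraries allow no test of these differences.

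The deposited tables list identifiers without names, and the reference table matched 0 of the 30452 to a symbol. Other genes of the BMP pathway, the remaining osteoblast genes and markers of stromal, fat, cartilage, endothelial and macrophage cells were therefore not analysed here. Their part in the changes of Spp1, Alpl, Runx2 and Bglap was not tested, and the stromal identity of the cells rests on the labels.

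Genes whose pattern was most like that of a tested member were found by Pearson correlation of log2 CPM over the 6 libraries, among 10248 other genes that averaged 5 CPM or more. The correlation is a description, since the 6 libraries fall into 2 groups and any gene that differed between them correlates. For Spp1 the nearest was ENSRNOG00000012772 (r = 0.999, 1619 bp), which rose from 89.0 to 220.3 mean CPM (log2 fold change 1.30, SE 0.075, edgeR adjusted p = 3.43e-09). For Alpl it was ENSRNOG00000006228 (r = 0.999, 2635 bp), which fell from 342.0 to 274.6 mean CPM (log2 fold change -0.32, SE 0.043, edgeR adjusted p = 2.78e-05). For Runx2 it was ENSRNOG00000033863 (r = 0.995, 5637 bp), at 35.8 mean CPM in controls and 39.6 with hydrogel, which was not called (log2 fold change 0.15, edgeR adjusted p = 0.0851). Each nearest gene was 1 of many alike. A correlation above 0.95 was found for 830 of the 10248 genes with Spp1 (8.10%), 708 with Alpl (6.91%) and 131 with Runx2 (1.28%).

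Runx2 protein is known to bind the letters AACCACA and also AACCGCA, so the 250 bases before the transcript start listed by RefSeq (build GRCr8) were searched for both, and for TATAAA, on both strands. Windows were matched by symbol for 4 of the 4 genes, with 2 windows for Runx2. They are shown for the 3 genes known as Runx2 targets. Of these, Spp1 was higher and Alpl lower with hydrogel, and Bglap was higher at few counts. A link between the motifs and the direction of change was not tested. Capitals mark matches to these motifs.
Bglap, chr2:176137319-176137568, minus strand: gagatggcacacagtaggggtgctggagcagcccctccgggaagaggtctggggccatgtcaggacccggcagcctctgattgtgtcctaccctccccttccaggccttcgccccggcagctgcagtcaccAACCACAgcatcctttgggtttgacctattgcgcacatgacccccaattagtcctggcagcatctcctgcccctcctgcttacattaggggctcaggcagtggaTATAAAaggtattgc
Spp1, chr14:5619805-5620054, minus strand: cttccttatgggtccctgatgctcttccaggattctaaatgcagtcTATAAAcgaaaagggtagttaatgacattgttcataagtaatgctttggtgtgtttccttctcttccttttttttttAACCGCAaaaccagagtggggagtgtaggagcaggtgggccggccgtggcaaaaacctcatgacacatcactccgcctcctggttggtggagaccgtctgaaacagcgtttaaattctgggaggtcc
Alpl, chr5:155289786-155290035, minus strand: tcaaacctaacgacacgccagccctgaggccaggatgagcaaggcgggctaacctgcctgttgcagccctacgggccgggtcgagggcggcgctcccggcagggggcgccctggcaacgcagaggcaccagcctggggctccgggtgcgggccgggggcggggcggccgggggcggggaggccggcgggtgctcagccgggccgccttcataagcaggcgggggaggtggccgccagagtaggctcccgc

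The Bglap window holds AACCACA from 119 to 113 bases before the listed start and TATAAA from 15 to 10 bases before it. The Spp1 window holds AACCGCA from 127 to 121 bases before the start and TATAAA from 204 to 199 bases before it. The Alpl window holds none of the 3 motifs and is rich in G and C (76.0%, against 46.8% for Spp1, 59.2% for Bglap and a median of 51.2% over all windows). Of the 2 Runx2 windows, the first holds AACCACA from 77 to 71 bases before the start and the second holds no match. Of 33469 RefSeq windows of the same length, 4.59% hold AACCACA, 1.20% hold AACCGCA, 5.76% hold either and 12.9% hold TATAAA. The motifs do not overlap one another in these windows. A match is a description of the letters and not a measured binding site, and the build behind the counts is not settled.

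Across the alternatives, the 4 genes parted by how firmly their values stood. Alpl and Spp1 kept direction and call in 20 of 20 alternatives each, with log2 fold changes from -0.97 to -0.87 for Alpl and from 0.92 to 1.10 for Spp1. Spp1 exceeded 2-fold in 5 of its 20 alternatives and Alpl fell below 0.5 in 0 of its 20. Runx2 kept its direction in all 20 and its call in 13. Bglap was not tested in the planned comparison, so its alternatives are set beside the fit with no filter. There Bglap kept its direction in all 17 that could be run and its call in 11. These alternatives were chosen after seeing the data, except limma on log2(FPKM + 1). They include the filter at a minimum count of 5, which Bglap passed through the hydrogel libraries, so that call is no separate support.

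**Figure D5:**
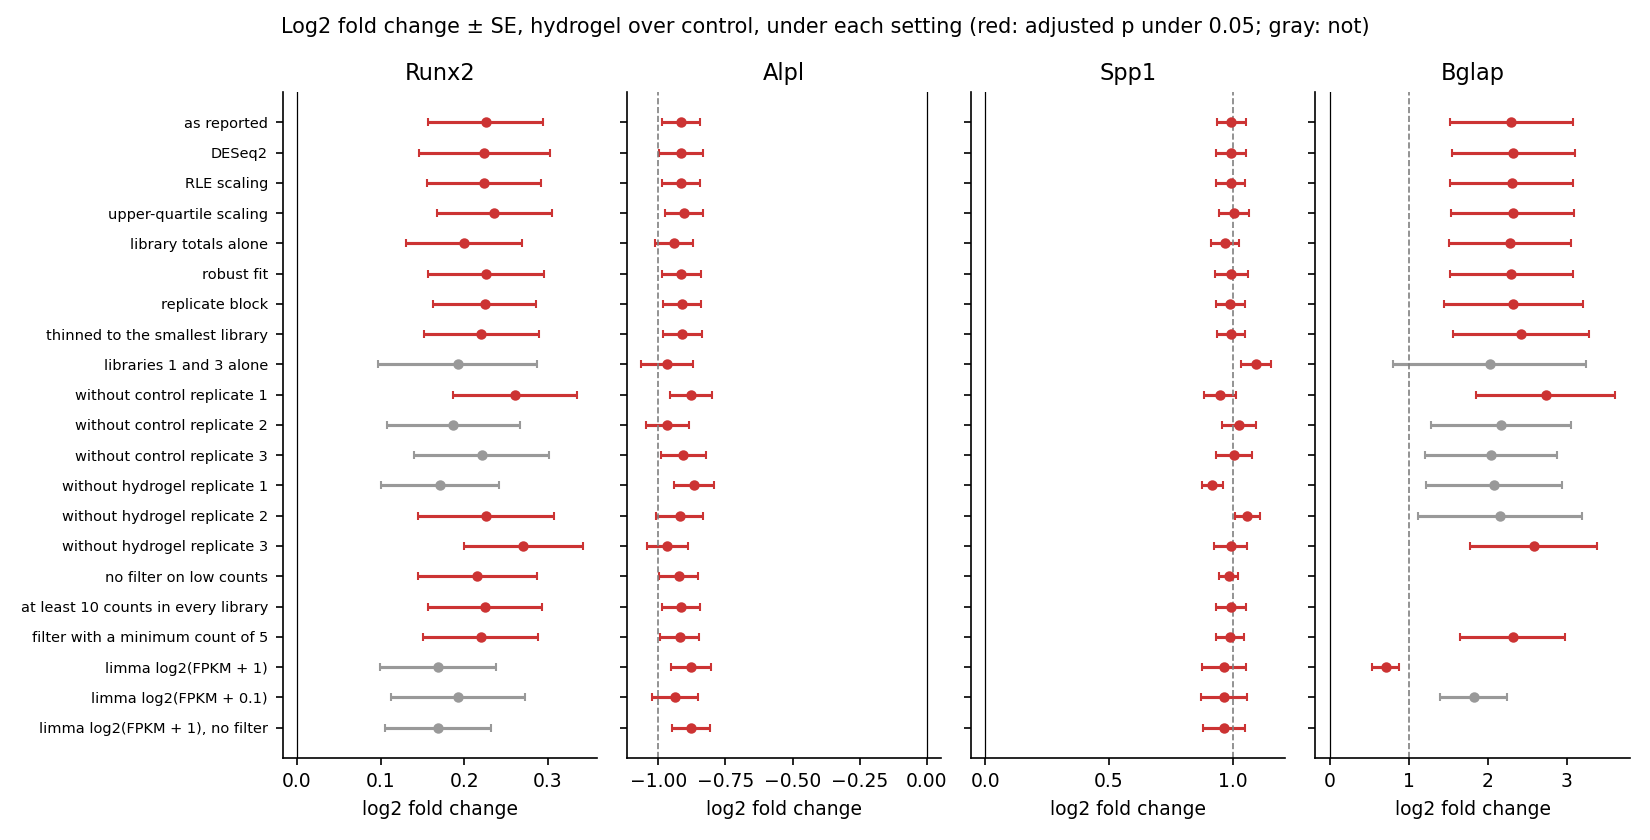
Log2 fold change of hydrogel over control (x axis, ± SE) for each member under each setting (rows), red where the adjusted p was under 0.05 and gray where it was not. Dashed lines mark 2-fold; the reported setting for Bglap has no low-count filter. Alpl and Spp1 are red throughout and lie near the 2-fold line, while Runx2 and Bglap lose the call in 7 and 6 settings.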

How the data were processed

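Per the file headers, the authors deposited whole-number counts of all 6 libraries in 1 table, and FPKM in 1 file for each library. Per the labels' protocols, TRIzol was used for RNA and the VAHTS Universal V6 kit for libraries. The aligner, counter and strandedness are not given in the sources used here. GRCm38 and mm10, which are mouse builds, stand in the submitters' processing notes, while the identifiers carry the rat prefix, so no coordinates of the counted genes are given. Whether members share reads with copies or antisense genes was not examined.

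Counts were compared with edgeR 4.0.16 in R 4.3.3 (filterByExpr, TMM, quasi-likelihood F test, Benjamini-Hochberg adjustment over all tested genes, called under 0.05). Standard errors were the absolute log2 fold change over the square root of F. Permutation tests and Poisson and binomial intervals used SciPy 1.17.1. CPM of Bglap uses library totals and other CPM values are TMM-scaled. Log2 CPM used a prior count of 2. The calls were tested on simulated data of the genes that passed the filter, which leaves out Bglap. The outcome is not reported here and is not used as support. Alternatives were DESeq2 1.42.0, limma 3.58.1 on log2 FPKM with a pseudocount, other scalings and filters, a replicate block, thinning and leaving out libraries. Total counts of 30601703 to 93728651 per library make 1 CPM about 31 to 94 counts.

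The rule for named genes takes all members, genes of the pathway lists, and for each tested member the gene most correlated with it. The lists need gene names and were not run. The members and lists were chosen with earlier results of these data known. Libraries of the same group differed by more than sampling noise in 6 of 6 pairs (chi-square per degree of freedom 6.38 to 17.4), and each counted as 1 replicate.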

Additional observations from a re-analysis of the deposited data

How the results depend on the processing

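The calls of Runx2 and Bglap depended on the setting. The log2 fold change of Runx2 was 0.19 with libraries 1 and 3 of each group alone (edgeR adjusted p = 0.172), 0.17 with limma on log2(FPKM + 1) with or without a filter (limma adjusted p = 0.127 and 0.135) and 0.19 with log2(FPKM + 0.1) (limma adjusted p = 0.149). None of these passed the threshold, and the cause was not tested. Leaving out 1 library gave 0.17 to 0.27. For Bglap with no filter, the log2 fold change was 2.02 with libraries 1 and 3 alone (edgeR adjusted p = 0.287) and 1.82 with limma on log2(FPKM + 0.1) (limma adjusted p = 0.0522, and 0.0383 among genes with a mean FPKM of at least 0.1). Leaving out 1 library gave 2.04 to 2.73. It was 0.71 with log2(FPKM + 1), where the pseudocount is larger than most of its values. With no filter, edgeR estimated infinite prior degrees of freedom, so its spread for Bglap came wholly from the trend over all genes. The alternatives run with no filter for Bglap were chosen after seeing the data, except limma on log2(FPKM + 1), which was planned.

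The number of genes called over 2-fold was 843, against 188 with limma on log2(FPKM + 1) and 180 without its filter. In a fit with a replicate block on the sample number, the log2 fold changes were 0.22 for Runx2, -0.91 for Alpl, 0.99 for Spp1 and 2.33 for Bglap, and no call of a member changed. Same-numbered libraries correlated by 0.022, 0.051 and 0.013 in their deviations from the group means. Libraries of different numbers correlated by -0.032 to 0.0047, all below the same-numbered values. The labels tie the numbers to no animal or day, and whether they mark a pairing was not tested. The pathway lists and the pairs with Bmp2 were not run. Counts of 2 to 8 in the control libraries limit what can be said of Bglap.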
